A study of Mus musculus with 13 samples.

Results

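The integrins are transmembrane receptors made of one alpha and one beta chain, and the laminins are basement membrane proteins made of one alpha, one beta and one gamma chain. All genes of the deposited gene-level table whose symbol named an integrin alpha or beta chain, a laminin chain or a nidogen were taken, which gave 44 of 36172 gene entries. Of these, 40 encode chains or nidogens, and 4 (Itgbl1, Itgb1bp1, Itgb1bp2 and Itgb3bp) carry an integrin-like symbol but encode no integrin chain. The rule for choosing them used symbols and no expression value. Enough reads for the test were present for 41 of the 44. Itgb2l, a relative of the leukocyte beta chain, had 0 counts in every library, Lama1, a laminin alpha chain of embryonic basement membranes, had 16 counts over 6 libraries, and Itgae, the alpha chain of intraepithelial lymphocytes, had 78 counts over all 13.

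RNA had been sequenced from the non-ischemic part of the left ventricle of C57BL/6JO1aHsd mice aged 8 to 10 weeks at the start of treatment. The MI+FG-3149 group (5 libraries) had undergone permanent ligation of the LAD, the left anterior descending coronary artery, and received a mouse anti CTGF mAb named FG-3149 at 10 mg/kg. The MI+IgG group (5 libraries) had the same ligation and received a mouse anti IgG ab at 10 mg/kg, as its label is worded. The Sham group (3 libraries) had sham surgery and no antibody, so both comparisons with Sham combine the ligation with an injected antibody. All groups carry the time label "1W+6W", which is not spelled out further, and the design text speaks of treated animals without saying whether any were pooled. CTGF is a secreted matricellular protein that binds integrins, and the study asked how blocking it altered the infarcted heart.

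On the surface of cardiomyocytes, the beta chain Itgb1 pairs with alpha chains such as Itga7 to hold the cell to the laminin of its basement membrane, while on fibroblasts and leukocytes other pairs bind collagen, fibronectin, vitronectin or cell adhesion molecules. Nidogens link the laminin network to collagen of the basement membrane. Receptors with the alpha chain Itgav and the beta chains Itgb6 or Itgb8 also release active TGF-beta from its latent complex.

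Libraries held 10954922 to 12794823 estimated counts in MI+FG-3149, 13084735 to 17567238 in MI+IgG and 12025880 to 14999813 in Sham. The 8 cardiomyocyte markers were detected in every group, with summed levels of 78260 to 86360 CPM (counts scaled to the library total) in MI+FG-3149, 74870 to 82030 in MI+IgG and 88970 to 96580 in Sham. The 3 atrial markers Myl7, Myl4 and Sln summed to 30.4 and 46.6 CPM in MI+IgG replicates 4 and 5, against 1.29 to 3.48 CPM in the other libraries. The mesothelial markers Upk3b and Msln summed to 29.0 CPM in MI+FG-3149 replicate 3 and to at most 7.19 CPM elsewhere. The share of exon counts lying in first exons also differed between the groups. The share in last exons was highest in Sham. Both are described with the exon data. Of the member calls given here, leaving out MI+IgG replicates 4 and 5 together removed only that of Nid1 against Sham, and no call rested on MI+FG-3149 replicate 3 except that of Itgal.

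Levels can be compared between genes only per length, and for this the authors' RPKM values were summed over each gene's transcripts and averaged over all 13 libraries. The muscle-restricted chaperone Itgb1bp2 (melusin) was highest at 185 RPKM, followed by Itgb1 at 132, the laminin beta chain Lamb2 at 90.1, the beta chain Itgb5 at 58.2 and Itga7, the main laminin receptor chain of striated muscle, at 49.97 RPKM. Next came Lamc1, the gamma chain of most laminins, at 40.8, Nid1 at 38.4, Lamb1 at 29.8, Lama4 at 24.3, Itga5 at 23.8 and Lama2 at 22.9 RPKM. The order of Itgb5 and Itga7 differed between groups, since Itgb5 had 59.3 ± 6.1 RPKM in MI+FG-3149, 68.5 ± 10.7 RPKM in MI+IgG and 39.2 ± 2.28 RPKM in Sham, where Itga7 had 47.3 ± 1.7, 47.0 ± 5.7 and 59.5 ± 2.54 RPKM in the same order of groups (mean ± SD, n = 5, 5 and 3). Lamc1 and Nid1 lay within their SDs of each other in MI+IgG and Sham: Lamc1 had 40.1 ± 1.35 in MI+FG-3149, 44.4 ± 2.98 in MI+IgG and 36.0 ± 1.27 RPKM in Sham, where Nid1 had 36.4 ± 1.49, 41.6 ± 1.85 and 36.5 ± 0.201 RPKM. Lama4, Itga5 and Lama2 lay close together, at 23.5 ± 1.05, 23.8 ± 2.49 and 23.3 ± 1.13 RPKM in MI+FG-3149, while the 4 highest members lay apart from each other by more than their SDs in each group. At the other end, 15 members averaged under 1 RPKM, among them the leukocyte chains Itgal, Itgax and Itgad, the platelet chain Itga2b and the beta chains Itgb3, Itgb4, Itgb7 and Itgb8.

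Relative to Sham, infarcted hearts of both antibody groups had more RNA of Itgbl1, Itga9, Itgb8 and the collagen receptor chain Itga11. The fibronectin receptor chain Itga5 and the vitronectin receptor chains Itgb5 and Itgb3 were also higher. The laminin receptor chain Itga7, Itgb6 and Itgad were lower, as were 2 laminin chains, Lama5 and Lamb3. The MI+FG-3149 calls of Itga5, Itgb3 and Itgb6 were lost in some settings, as given with each gene. With edgeR's quasi-likelihood test at an adjusted p under 0.05, 12 members rose and 5 fell in MI+FG-3149 against Sham, and 24 did not pass. Without Sham replicate 1, 6 members were called higher in that comparison, and with last exons only, a setting chosen after seeing the data that left 32 members to test, also 6. Of all 13434 genes tested in that comparison, 29.5% were called, 15.6% higher and 13.9% lower; the members' shares were 29.3% higher and 12.2% lower. In MI+IgG against Sham, 14 members rose, 6 fell and 21 did not pass, which is 34.1% higher and 14.6% lower, beside 33.7% of all genes called, 17.8% higher and 15.9% lower. The share of members that fell thus lay near that of all genes in both comparisons, and no test of the list was made. Every MI+FG-3149 library was above every Sham library in 13 tested members and below in 8, beside 32.2% of all genes that did not overlap (16.6% higher and 15.6% lower). For MI+IgG these numbers were 14 and 9, beside 35.8% of all genes (18.2% higher and 17.7% lower). The median log2 fold change of the tested members was 0.17 in both comparisons, and that of all genes was -0.0015 in MI+FG-3149 and -0.0010 in MI+IgG against Sham. Both comparisons use the same 3 Sham libraries, so their values are given side by side and not as independent support for each other. Since whole tissue was sequenced, fewer cells of a type and less RNA per cell cannot be told apart.

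**Figure D1:**
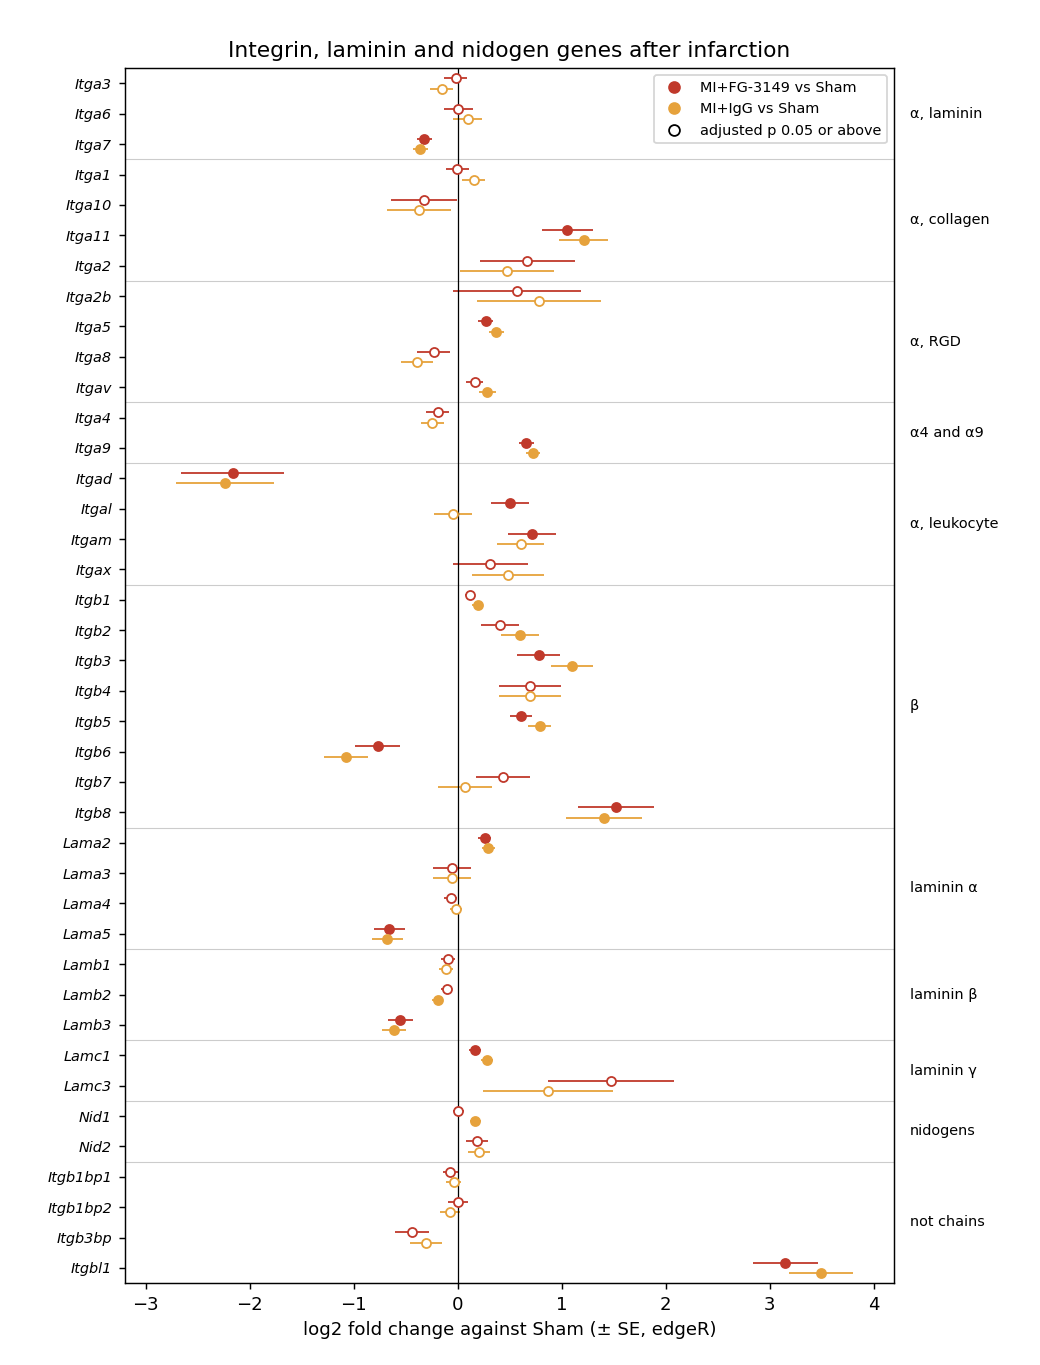
Log2 fold change against Sham with its standard error (edgeR) for 40 of the 41 members tested, in MI+FG-3149 (red, upper point of each pair) and MI+IgG (orange, lower point), grouped by role. Filled points passed an adjusted p of 0.05; Itgbl1 lies farthest to the right at 3.15 and 3.49, and Itgad farthest to the left at -2.16 and -2.23.

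The largest rise among the members was in Itgbl1, which encodes a secreted protein with the cysteine-rich repeats of an integrin beta chain but no membrane anchor. Its level was 55.6, 57.8, 41.3, 42.4 and 51.1 CPM in the 5 MI+FG-3149 libraries, 37.0, 92.2, 59.6, 63.4 and 61.8 CPM in the 5 MI+IgG libraries and 5.96, 5.08 and 5.8 CPM in Sham. The lowest infarcted library thus lay far above the highest Sham library, while the 2 infarcted groups overlapped. The change was 8.88-fold in MI+FG-3149 (log2 fold change 3.15 ± 0.31, adjusted p = 5.49e-05) and 11.2-fold in MI+IgG (log2 fold change 3.49 ± 0.31, adjusted p = 1.38e-05). It passed the test under all 27 alternative settings of each comparison.

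Of the 4 collagen receptor alpha chains, 1 rose and none fell. Itga11, the fibrillar collagen receptor of fibroblasts, had 12.8, 10.1, 10.8, 8.28 and 12.8 CPM in MI+FG-3149, 8.35, 17.3, 14.2, 10.1 and 10.8 CPM in MI+IgG and 4.13, 6.1 and 5.55 CPM in Sham. Every infarcted library was above every Sham library, with log2 fold change 1.06 ± 0.24, adjusted p = 0.0049 in MI+FG-3149 and log2 fold change 1.21 ± 0.24, adjusted p = 0.00128 in MI+IgG. The other collagen receptor chains did not pass: Itga1, the most abundant of them, averaged 63.6 ± 8.13 CPM in MI+FG-3149, 71.0 ± 8.56 CPM in MI+IgG and 63.7 ± 6.45 CPM in Sham, and Itga2 and Itga10 stayed under 4 CPM in every library. The summed level of 6 markers of activated fibroblasts moved beside Itga11 and Itgbl1, at 492 to 757 CPM in MI+FG-3149, 756 to 1496 CPM in MI+IgG and 63.0 to 69.5 CPM in Sham. Of these 6 markers, 5 were called higher in each comparison with Sham, and of the 7 general fibroblast markers 6 were. How far the number of fibroblasts enters the change of either gene was not tested.

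Among receptors of fibronectin and vitronectin, the beta partners Itgb5 and Itgb3 of Itgav rose. Itgb5, a vitronectin receptor chain, had 219.8, 206, 178, 184 and 194 CPM in MI+FG-3149, 186, 279.1, 223, 215 and 209 CPM in MI+IgG and 121, 129 and 136 CPM in Sham. No infarcted library overlapped with Sham, and the change was log2 fold change 0.61 ± 0.11, adjusted p = 0.000798 in MI+FG-3149 and log2 fold change 0.79 ± 0.11, adjusted p = 6.57e-05 in MI+IgG. Itgb3, which pairs with Itgav or, on platelets, with Itga2b, had 3.76, 4.12, 3.55, 2.7 and 3.01 CPM in MI+FG-3149, 4.87, 5.12, 3.9, 3.42 and 4.15 CPM in MI+IgG and 1.67, 2.17 and 2.15 CPM in Sham. These groups did not overlap with Sham either, with log2 fold change 0.78 ± 0.21, adjusted p = 0.00935 in MI+FG-3149 and log2 fold change 1.10 ± 0.20, adjusted p = 0.000436 in MI+IgG. Without Sham replicate 1 the MI+FG-3149 value for Itgb3 was 0.67 with an adjusted p of 0.0542.

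The fibronectin receptor chain Itga5 rose by less, to 105 ± 9.5 CPM in MI+FG-3149 and 113 ± 8.81 CPM in MI+IgG, against 87.2 ± 4.01 CPM in Sham (SD; log2 fold change 0.27 ± 0.08, adjusted p = 0.0117 in MI+FG-3149 and log2 fold change 0.37 ± 0.07, adjusted p = 0.00086 in MI+IgG). Its MI+FG-3149 call was lost without Sham replicate 1 (log2 fold change 0.23, adjusted p = 0.0719) and with last exons only (log2 fold change 0.22, adjusted p = 0.142). Itgav itself averaged 36.9 ± 3.09 CPM in MI+FG-3149, 40.0 ± 3.09 CPM in MI+IgG and 32.8 ± 2.19 CPM in Sham; it passed in MI+IgG (log2 fold change 0.28 ± 0.08, adjusted p = 0.0104) but not in MI+FG-3149 (log2 fold change 0.17 ± 0.08, adjusted p = 0.133). The MI+IgG call of Itgav was lost without Sham replicate 3 (adjusted p = 0.0618) and with last exons only (adjusted p = 0.0514). Itga8, a chain of fibroblasts and smooth muscle, averaged 6.15 ± 1.11 CPM in MI+FG-3149, 5.52 ± 0.859 CPM in MI+IgG and 7.24 ± 0.474 CPM in Sham and passed in neither comparison. The platelet chain Itga2b did not pass, and its highest values were 3.42 CPM in MI+FG-3149 replicate 5 and 3.92 CPM in MI+IgG replicate 5, against 1.11, 1.02 and 0.995 CPM in Sham.

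Itgb8 and Itgb6, the beta chains named above for the release of active TGF-beta with Itgav, moved in opposite directions. Itgb5 and Itgb3, which also pair with Itgav, both rose, as given above. Itgb8 had 1.45, 1.3, 1.91, 1.12 and 0.894 CPM in MI+FG-3149, 0.726, 1.63, 1.38, 1.3 and 0.999 CPM in MI+IgG and 0.477, 0.474 and 0.414 CPM in Sham, so that all infarcted libraries were higher (log2 fold change 1.52 ± 0.37, adjusted p = 0.00474 in MI+FG-3149 and log2 fold change 1.41 ± 0.36, adjusted p = 0.00583 in MI+IgG). This gene had only 194 counts over all libraries. Itgb6, otherwise known mainly from epithelia, had 36.9, 31.6, 31.8, 18.2 and 22.9 CPM in MI+FG-3149, 31.7, 24.6, 18.9, 21.9 and 17.8 CPM in MI+IgG and 46.9, 49.2 and 48.7 CPM in Sham. All infarcted libraries were lower than the lowest Sham library, and Itgb6 fell by 0.77 on the log2 scale in MI+FG-3149 (SE 0.21, adjusted p = 0.0201) and by 1.07 in MI+IgG (SE 0.21, adjusted p = 0.00259). Leaving out any one Sham library took the MI+FG-3149 call to an adjusted p of 0.0526, 0.0613 or 0.0551, with the fall at 0.788, 0.754 or 0.757.

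**Figure D2:**
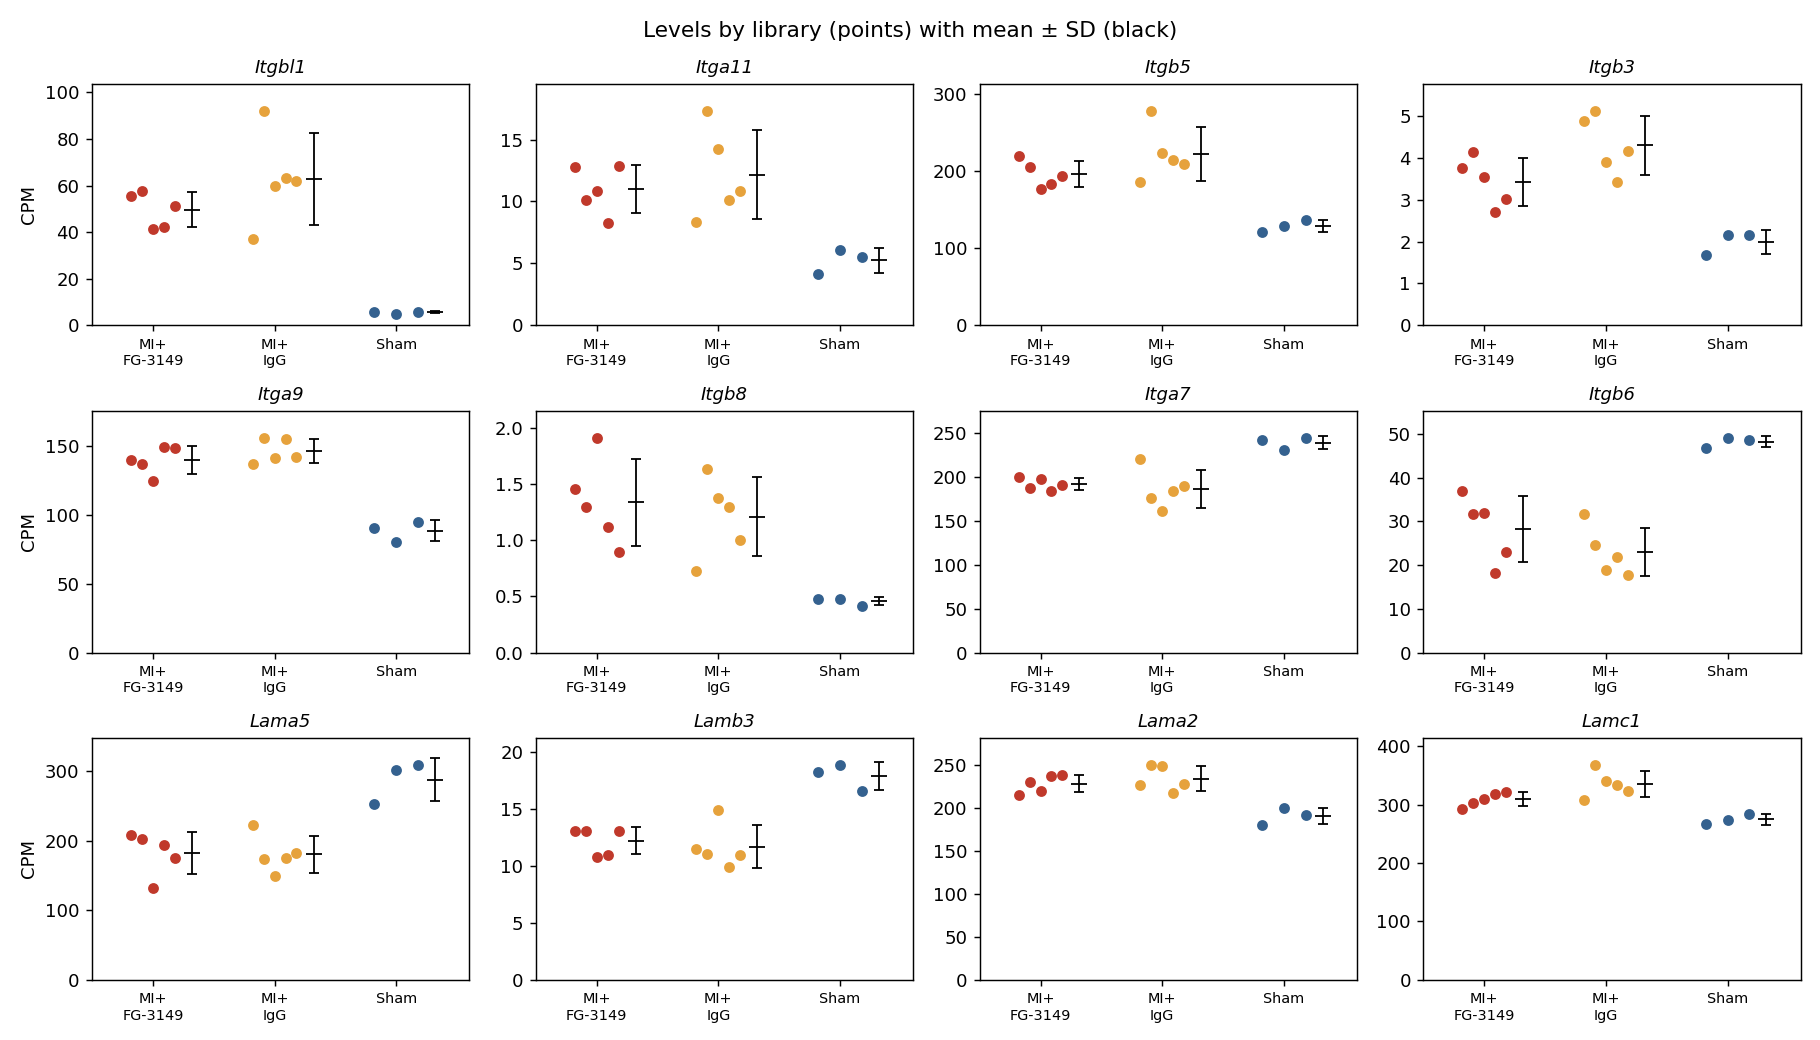
Level of 12 members in each library in CPM (points), with the group mean and SD in black, for MI+FG-3149 (red, n = 5), MI+IgG (orange, n = 5) and Sham (blue, n = 3); each axis starts at 0. In Itgbl1, Itga11, Itgb5, Itgb3, Itga9 and Itgb8 all infarcted libraries lie above Sham, and in Itga7, Itgb6, Lama5 and Lamb3 all lie below it.

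Itga9, whose receptor binds tenascin, osteopontin and VCAM, had 140.0, 137, 125, 149 and 149 CPM in MI+FG-3149, 137, 156, 141, 155 and 142 CPM in MI+IgG and 90.4, 80.5 and 95.1 CPM in Sham. The infarcted libraries were all above Sham, and Itga9 had the smallest p among the members in both comparisons (log2 fold change 0.66 ± 0.07, adjusted p = 5.38e-06 in MI+FG-3149 and log2 fold change 0.73 ± 0.07, adjusted p = 8.71e-07 in MI+IgG). Its close relative Itga4, the leukocyte receptor chain for VCAM and fibronectin, averaged 12.5 ± 1.81 CPM in MI+FG-3149, 12.1 ± 0.883 CPM in MI+IgG and 14.3 ± 0.3 CPM in Sham and passed in neither (adjusted p = 0.206 and 0.0921). The authors' count table divides Itga9 between 2 RefSeq transcripts. It gives the shorter one 13.3 to 20.1% in MI+FG-3149, 11.7 to 23.3% in MI+IgG and 24.6 to 28.9% in Sham. However, the first exon belonging to the shorter one alone (chromosome 9, 118711692 to 118711781, mm10) had 0 counts in every library.

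The shared beta chain Itgb1 moved little. It had 546, 544, 568.3, 561 and 552 CPM in MI+FG-3149, 553, 613, 595, 558 and 599.8 CPM in MI+IgG and 525.7, 503 and 505 CPM in Sham. Every infarcted library was above Sham, and the rise passed in MI+IgG (log2 fold change 0.19 ± 0.05, adjusted p = 0.00556) but not in MI+FG-3149 (log2 fold change 0.12 ± 0.05, adjusted p = 0.0809). As a share of the RPKM of the integrin beta chains, Itgb1 made up 65.0 ± 2.31% in MI+FG-3149, 64.0 ± 2.50% in MI+IgG and 69.7 ± 1.34% in Sham, and Itgb5 29.4 ± 2.06%, 31.0 ± 2.50% and 22.5 ± 1.36% in the same order of groups. Itgb6 made up 2.83 ± 0.703% in MI+FG-3149, 2.18 ± 0.624% in MI+IgG and 5.65 ± 0.187% in Sham (SD, n = 5, 5 and 3). The remaining beta chains, Itgb4 of hemidesmosomes and Itgb7 of lymphocytes, did not pass in either comparison.

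**Figure D3:**
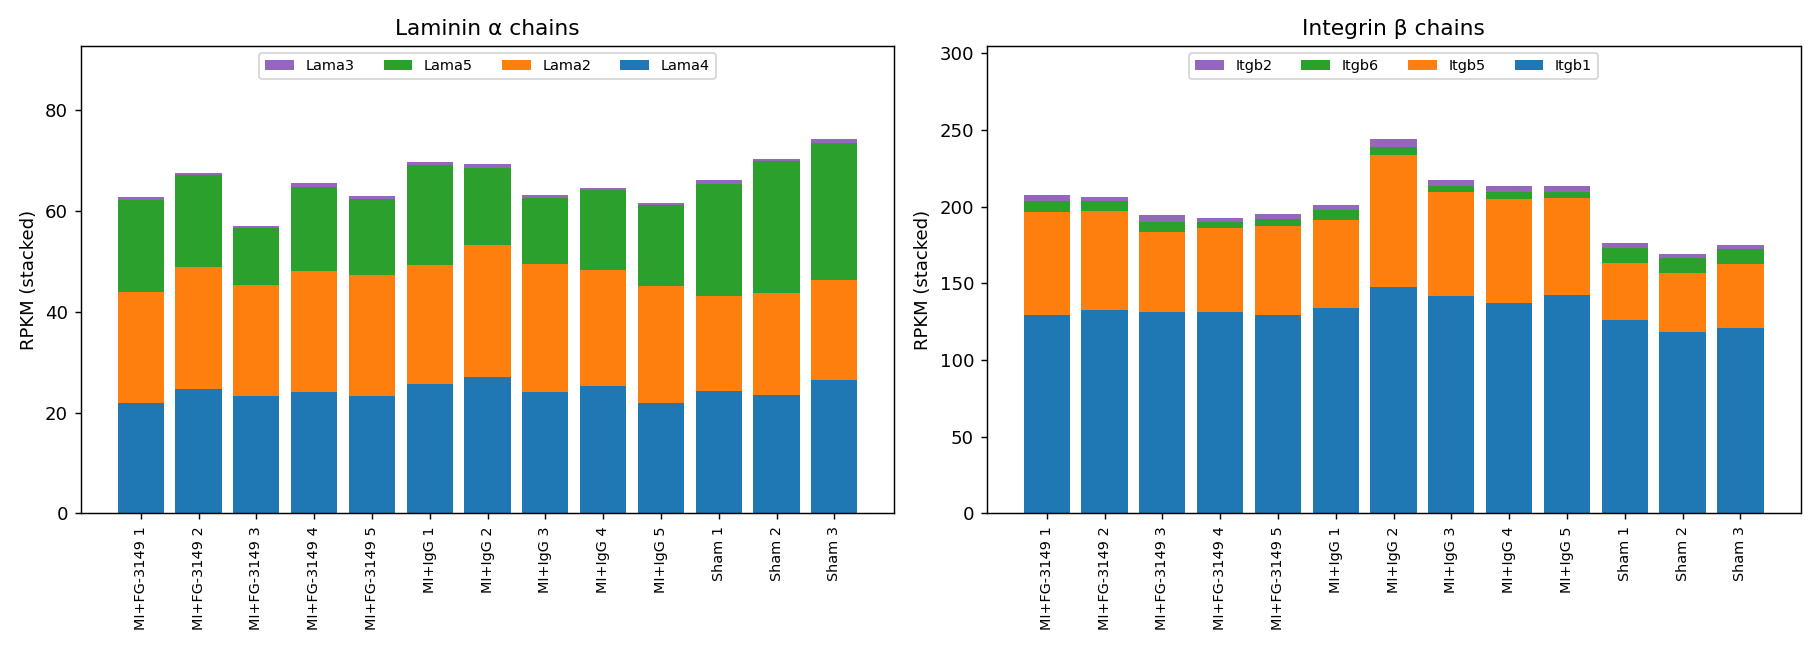
RPKM of the 4 most abundant laminin alpha chains (left) and of 4 integrin beta chains (right) in each library, stacked, for MI+FG-3149, MI+IgG and Sham. The Lama5 part is larger in every Sham library than in any infarcted one, and Itgb5 is larger in every infarcted library than in any Sham library.

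Of the 3 laminin-binding alpha chains, 1 fell. Itga7 had 200.1, 188, 197, 184 and 191 CPM in MI+FG-3149, 221, 177, 162, 184 and 190.4 CPM in MI+IgG and 242, 231 and 245 CPM in Sham. No infarcted library reached the Sham range, with log2 fold change -0.32 ± 0.07, adjusted p = 0.003 in MI+FG-3149 and log2 fold change -0.36 ± 0.07, adjusted p = 0.000853 in MI+IgG. Cardiomyocyte markers moved beside it, with 5 of 8 called lower in each comparison and the summed levels given above; their part in the change of Itga7 was not tested. Itga6 averaged 87.7 ± 2.22 CPM in MI+FG-3149, 93.3 ± 20.7 CPM in MI+IgG and 87.2 ± 4.62 CPM in Sham, and Itga3, an epithelial laminin receptor chain, 14.7 ± 0.969 CPM, 13.4 ± 1.73 CPM and 14.9 ± 1.53 CPM in the same order, neither passing. The muscle chaperone Itgb1bp2 averaged 244 ± 35.6 CPM in MI+FG-3149, 232 ± 10.6 CPM in MI+IgG and 244 ± 18.2 CPM in Sham, with adjusted p of 0.989 and 0.572. The adaptor Itgb1bp1 and the centromere protein gene Itgb3bp did not pass either, although all infarcted libraries were below Sham in Itgb3bp (adjusted p = 0.0502 in MI+FG-3149).

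Chains of leukocyte integrins gave mixed results at low levels. Itgam, the macrophage and neutrophil chain, had 9.83, 10.4, 16.8, 8.93 and 11.6 CPM in MI+FG-3149, 6.97, 10.0, 13.1, 9.43 and 13.8 CPM in MI+IgG and 7.15, 7.04 and 6.8 CPM in Sham. It rose in MI+FG-3149 (log2 fold change 0.72 ± 0.23, adjusted p = 0.0301) and missed the threshold in MI+IgG (log2 fold change 0.61 ± 0.23, adjusted p = 0.0521). Without MI+FG-3149 replicate 5 the first of these gave an adjusted p of 0.0519, and without Sham replicate 1, 2 or 3 it gave 0.0826, 0.088 or 0.086. Its partner Itgb2, the beta chain of leukocytes, averaged 9.82 ± 2.31 CPM in MI+FG-3149, 11.1 ± 2.07 CPM in MI+IgG and 7.37 ± 0.998 CPM in Sham; it passed in MI+IgG (log2 fold change 0.60 ± 0.18, adjusted p = 0.0155) but not in MI+FG-3149 (log2 fold change 0.41 ± 0.18, adjusted p = 0.102). The MI+IgG call of Itgb2 was lost without Sham replicate 2 or 3 (adjusted p = 0.0696 and 0.0703). Macrophage markers were higher beside these genes, with 8 of 9 called in MI+FG-3149 and 7 of 9 in MI+IgG and summed levels of 503 to 821 CPM in MI+FG-3149, 474 to 733 CPM in MI+IgG and 356 to 364 CPM in Sham. Their part was not tested.

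Itgad, a leukocyte chain of tissue macrophages, was lower, with 0.171, 0.535, 0.091, 0.372 and 0.0813 CPM in MI+FG-3149, 0.508, 0.113, 0.229, 0.236 and 0.154 CPM in MI+IgG and 1.67, 0.948 and 0.912 CPM in Sham. The groups did not overlap with Sham (log2 fold change -2.16 ± 0.49, adjusted p = 0.00319 in MI+FG-3149 and log2 fold change -2.23 ± 0.47, adjusted p = 0.0013 in MI+IgG), but the gene had only 79 counts over the 13 libraries. Itgal, the lymphocyte chain of LFA, had 4.96, 5.19, 4.64, 3.54 and 5.45 CPM in MI+FG-3149, 3.56, 4.0, 2.98, 3.3 and 2.46 CPM in MI+IgG and 3.18, 3.52 and 3.4 CPM in Sham. MI+FG-3149 just passed against Sham (log2 fold change 0.50 ± 0.18, adjusted p = 0.0469) and MI+IgG did not (log2 fold change -0.04 ± 0.18, adjusted p = 0.885). The Itgal call was lost in 17 of 27 alternative settings, among them the omission of MI+FG-3149 replicate 1, 2, 3 or 5 (adjusted p = 0.0736, 0.0827, 0.0579 and 0.0975), of MI+IgG replicate 3 or 4 (0.0531 and 0.0546) and of Sham replicate 1, 2 or 3 (0.137, 0.0917 and 0.0955). None of the 5 lymphocyte markers tested was called in either comparison. Itgax, the dendritic cell chain, passed in neither.

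Among laminin alpha chains, Lama2 rose, Lama5 fell and Lama3 and Lama4 did not pass. Lama2, the chain of the laminin around muscle cells, had 216, 230.5, 220.4, 237 and 238 CPM in MI+FG-3149, 228, 251, 249, 217 and 228 CPM in MI+IgG and 181, 200.1 and 192 CPM in Sham. Lama5, a chain of vascular and epithelial basement membranes, had 208, 202, 133, 194 and 175 CPM in MI+FG-3149, 223, 174, 149, 175 and 183 CPM in MI+IgG and 253, 302 and 309 CPM in Sham. In both genes the infarcted libraries did not overlap with Sham: Lama2 changed by log2 fold change 0.26 ± 0.06, adjusted p = 0.00322 in MI+FG-3149 and log2 fold change 0.30 ± 0.06, adjusted p = 0.00084 in MI+IgG, and Lama5 by log2 fold change -0.66 ± 0.15, adjusted p = 0.00598 in MI+FG-3149 and log2 fold change -0.67 ± 0.15, adjusted p = 0.00405 in MI+IgG. Both Lama2 calls were lost with last exons only (adjusted p = 0.123 in MI+FG-3149 and 0.117 in MI+IgG, with log2 fold changes of 0.28 and 0.27). Lama4, the endothelial alpha chain, averaged 143 ± 6.13 CPM in MI+FG-3149, 148 ± 10.7 CPM in MI+IgG and 150.0 ± 8.06 CPM in Sham. Per length, Lama5 made up 25.0 ± 3.47% of the laminin alpha chains in MI+FG-3149, 24.3 ± 3.06% in MI+IgG and 35.9 ± 1.80% in Sham. Lama2 made up 36.9 ± 1.43% in MI+FG-3149, 37.1 ± 2.41% in MI+IgG and 28.0 ± 1.11% in Sham (SD, n = 5, 5 and 3). Of the 8 endothelial markers, 4 were called lower in MI+FG-3149 and 2 in MI+IgG, beside 13.9% and 15.9% of all genes. Their summed levels were 1537 to 1799 CPM in MI+FG-3149, 1539 to 1880 CPM in MI+IgG and 1766 to 1958 CPM in Sham. These ranges overlapped. The 8 mural (smooth muscle and pericyte) markers summed to 963 to 1138, 931.5 to 1101 and 1315 to 1352 CPM in the same order. Of these, 2 were called lower in MI+FG-3149, and 1 lower and 2 higher in MI+IgG. The part of either list in the change of Lama5 was not tested.

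Lamb3, the beta chain of epithelial laminin, had 13.1, 13.1, 10.8, 10.98 and 13.1 CPM in MI+FG-3149, 11.5, 11.1, 15.0, 9.96 and 10.99 CPM in MI+IgG and 18.3, 18.9 and 16.6 CPM in Sham. All infarcted libraries were below Sham (log2 fold change -0.55 ± 0.12, adjusted p = 0.00205 in MI+FG-3149 and log2 fold change -0.61 ± 0.12, adjusted p = 0.000538 in MI+IgG). Lama3, an alpha chain of epithelial laminin, averaged 5.85 ± 0.913 CPM in MI+FG-3149, 5.81 ± 1.09 CPM in MI+IgG and 6.1 ± 1.51 CPM in Sham.

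Lamc1 had 292, 303, 309.6, 318 and 322 CPM in MI+FG-3149, 309, 368, 341, 333 and 324 CPM in MI+IgG and 267, 273 and 285 CPM in Sham. All infarcted libraries lay above Sham, and Lamc1 rose in both comparisons (log2 fold change 0.17 ± 0.06, adjusted p = 0.0338 in MI+FG-3149 and log2 fold change 0.29 ± 0.06, adjusted p = 0.000871 in MI+IgG). The MI+FG-3149 call was lost in 9 of 27 alternative settings. It was lost without MI+FG-3149 replicate 4 or 5 (adjusted p = 0.0679 and 0.0698) or Sham replicate 1 or 2 (0.133 and 0.1). It was also lost with last exons only, with the replicate block and in each run of limma on RPKM. Lamb2, the beta chain of adult muscle and vessel laminin, averaged 509.7 ± 24.4 CPM in MI+FG-3149, 479.5 ± 22.9 CPM in MI+IgG and 548 ± 13.0 CPM in Sham; it fell in MI+IgG (log2 fold change -0.19 ± 0.05, adjusted p = 0.00966) and did not pass in MI+FG-3149 (log2 fold change -0.10 ± 0.05, adjusted p = 0.155). The MI+IgG call of Lamb2 was lost with last exons only (adjusted p = 0.0695). Lamb1 passed in neither, at 171 ± 15.1 CPM in MI+FG-3149, 168 ± 11.2 CPM in MI+IgG and 182 ± 2.52 CPM in Sham. Lamc3, a rare gamma chain, had 134 counts in all and did not pass.

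Nid1, the main nidogen, had 207, 216, 226, 229 and 234 CPM in MI+FG-3149, 231, 263, 256, 244 and 251 CPM in MI+IgG and 220.4, 223 and 219 CPM in Sham. MI+IgG lay above all Sham libraries (log2 fold change 0.17 ± 0.05, adjusted p = 0.02), while MI+FG-3149 lay on both sides of Sham (log2 fold change 0.01 ± 0.05, adjusted p = 0.927). The MI+IgG call was lost without Sham replicate 1, 2 or 3 (adjusted p = 0.0637, 0.0511 and 0.0666) and without MI+IgG replicates 4 and 5 together (0.0529). Nid2 averaged 33.7 ± 4.47 CPM in MI+FG-3149, 34.1 ± 2.59 CPM in MI+IgG and 29.6 ± 3.92 CPM in Sham and passed in neither comparison.

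Between the antibody groups, no member passed: MI+FG-3149 against MI+IgG gave 0 calls among the 41 members in edgeR, where 1.07% of all genes (144) were called. DESeq2 called 1 member, Nid1, and limma voom none. In edgeR, 1849 of all 13434 genes had an unadjusted p under 0.05, and so did 3 of the 41 members. These were Nid1 (log2 fold change -0.16 ± 0.05, unadjusted p = 0.00246, adjusted p = 0.106), Itgal (log2 fold change 0.54 ± 0.15, unadjusted p = 0.00244, adjusted p = 0.106) and Lamc1 (log2 fold change -0.12 ± 0.05, unadjusted p = 0.0279, adjusted p = 0.294), and the 2 groups overlapped in these and in all other members, beside 3.14% of all genes in which they did not overlap. The DESeq2 value for Nid1 was -0.16 with an adjusted p of 0.0456. The 95% interval of the difference stayed within 0.5 on the log2 scale in either direction for 25 of the 41 members and within 1 for 38. For Itgb1 the interval ran from -0.16 to 0.01, for Itga7 from -0.09 to 0.17, for Lama2 from -0.14 to 0.07 and for Lama5 from -0.27 to 0.30. For Itgbl1 it ran from -0.78 to 0.10, for Itga11 from -0.55 to 0.24 and for Itgb5 from -0.37 to 0.01. The members whose interval reached beyond 1 were Itga2b, Itgad and Lamc3, which had 271, 79 and 134 counts over all libraries.

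Partner genes of the integrins and laminins were counted in 4 lists. Of 13 other integrin ligands tested, 8 rose and 1 fell in MI+FG-3149, and 9 rose and 0 fell in MI+IgG, against Sham. This is 69.2% called in each comparison, beside 29.5% of all genes in MI+FG-3149 and 33.7% in MI+IgG, with a median log2 fold change over the list of 0.54 in MI+FG-3149 and 0.78 in MI+IgG. They included the matricellular Postn, at 292 ± 45.2 CPM in MI+FG-3149, 544 ± 176 CPM in MI+IgG and 37.1 ± 4.14 CPM in Sham, and Ctgf, the gene of the antibody's target, at 248 ± 57.1 CPM, 324 ± 74.3 CPM and 42.5 ± 4.58 CPM in the same order. Spp1, which encodes osteopontin, averaged 2.34 ± 1.13 CPM in MI+FG-3149, 4.37 ± 1.73 CPM in MI+IgG and 0.327 ± 0.145 CPM in Sham, and Vcam1 25.9 ± 4.67 CPM, 30.5 ± 3.38 CPM and 17.9 ± 2.0 CPM; Postn, Ctgf, Spp1 and Vcam1 were called in both comparisons. Vitronectin (Vtn) was the ligand that fell, by 0.35 on the log2 scale in MI+FG-3149 (adjusted p = 0.044). Of 15 further basement membrane genes, 9 rose in MI+FG-3149 and 10 in MI+IgG and none fell, among them Sparc at 651 ± 38.4 CPM in MI+FG-3149, 823 ± 145 CPM in MI+IgG and 398 ± 29.7 CPM in Sham, and Col18a1, Smoc2 and Col4a4. The shares called in that list were 60% in MI+FG-3149 and 66.7% in MI+IgG, beside the same shares of all genes, and no list was tested as a whole.

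Of 27 genes of integrin adaptors and focal adhesions, 9 rose and 3 fell in MI+FG-3149, and 11 rose and 1 fell in MI+IgG, which is 44.4% called in each, beside 29.5% and 33.7% of all genes in the same order. The kinase Ptk2b averaged 13.1 ± 2.47 CPM in MI+FG-3149, 12.7 ± 1.65 CPM in MI+IgG and 6.11 ± 1.13 CPM in Sham, and Zyx, Actn1 and Sorbs3 also rose in both. The adaptor Lims1 fell in both (log2 fold change -0.33 ± 0.07, adjusted p = 0.00107 in MI+FG-3149 and log2 fold change -0.26 ± 0.07, adjusted p = 0.00534 in MI+IgG), while the focal adhesion kinase gene Ptk2 (log2 fold change -0.28 ± 0.06, adjusted p = 0.00143) and Lims2 (log2 fold change -0.26 ± 0.08, adjusted p = 0.0263) fell in MI+FG-3149. Of 18 genes of the dystroglycan complex and Bcam, the other laminin receptors of muscle, 1 rose and 3 fell in MI+FG-3149, and 3 rose and 4 fell in MI+IgG. These shares, 22.2% called in MI+FG-3149 and 38.9% in MI+IgG, lay near those of all genes. Sgca, a sarcoglycan, averaged 124 ± 8.09 CPM in MI+FG-3149, 117 ± 7.01 CPM in MI+IgG and 147 ± 4.7 CPM in Sham and fell in both, and Dag1, dystroglycan itself, fell in MI+IgG (log2 fold change -0.18 ± 0.05, adjusted p = 0.0118). In MI+FG-3149 against MI+IgG none of the genes in these 4 lists was called by edgeR. An unadjusted p under 0.05 was found for 3 of 13 ligands, 4 of 27 adaptors and 1 of 15 basement membrane genes. It was also found for 2 of 18 dystroglycan complex genes, beside 1849 of all 13434 genes. Every MI+FG-3149 library was below every MI+IgG library in Postn (log2 fold change -0.90 ± 0.20, adjusted p = 0.0688) and Ptk2 (log2 fold change -0.18 ± 0.05, adjusted p = 0.0827). The 2 groups did not overlap in 3.14% of all genes.

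Exon counts allowed a look at whether parts of a member gene moved unequally. In MI+FG-3149 against MI+IgG, 16 of 569 exons in 25 member genes changed differently from the rest of their gene (edgeR's diffSpliceDGE, adjusted p under 0.05), beside 4.42% of all 90865 exons tested, and 11 of the 16 were first exons, of 20 member first exons tested. Against Sham, MI+FG-3149 had 18 such exons (6.95% of all exons called) and MI+IgG had 1 (0.492% of all exons called). The clearest was the first exon of Itgb1 (chromosome 8, 128685654 to 128685959, plus strand, mm10), which held 1.55, 2.37, 2.79, 2.59 and 2.64% of the gene's exon counts in MI+FG-3149, 0.341, 0.294, 0.434, 0.686 and 0.423% in MI+IgG and 0.212, 0.256 and 0.164% in Sham. Every MI+FG-3149 library was above every MI+IgG library, and every MI+IgG library above every Sham library (relative log2 fold change 1.70, adjusted p = 2.8e-44 against MI+IgG; 2.41, adjusted p = 4.43e-42 against Sham). First exons differed over all genes as well: 56.2% of 4768 first exons were called in MI+FG-3149 against MI+IgG, 2677 of them higher and 1 lower, beside 1.56% of the other exons. First exons held 3.50 to 3.81% of the exon counts in MI+FG-3149, 2.12 to 2.80% in MI+IgG and 1.86 to 2.06% in Sham. Last exons held 35.3 to 37.2%, 36.8 to 38.1% and 38.4 to 39.7% in the same order of groups. These shares were taken over all genes with at least 3 exons.

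First exons rich in G and C were called most often. Of all first exons with at least 70% GC, 91.5% were called higher in MI+FG-3149 against MI+IgG. The share was 49.0% from 60 to 70% GC, 29.6% from 50 to 60% GC and 13.5% under 50% GC. All 8 member first exons with at least 70% GC were called, those of Itga5, Itga6, Itga9, Itgav, Itgb1, Itgb5, Lama5 and Lamc1, and 3 of the 12 below 70% were, those of Itga1, Itgb1bp2 and Lamb2. With first exons left out, 3 member exons were called in MI+FG-3149 against MI+IgG, 5 in MI+FG-3149 against Sham and 0 in MI+IgG against Sham. When genes were recounted from exons without their first exons, Itgad fell below the filter, although its own first exon had 0 counts in every library. The other 16 members called in MI+FG-3149 against Sham and the other 19 called in MI+IgG against Sham were called again. In MI+FG-3149 against MI+IgG this recount called 0 members and 61 genes in all. Whether first-exon coverage reflects the RNA or the libraries was not tested. Itgb1 and Itga7 have 1 RefSeq transcript each in the deposited table, so their alternative exons were not measured here.

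**Figure D4:**
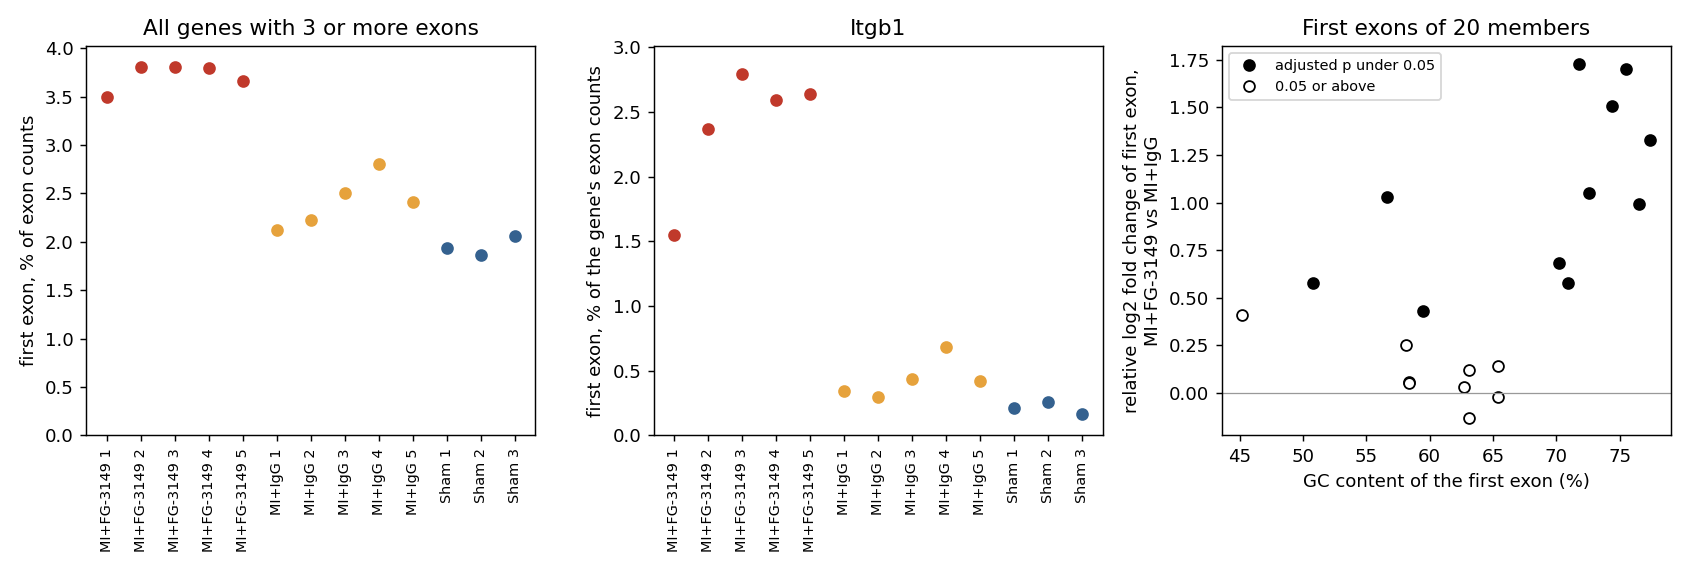
Share of exon counts in first exons by library over all genes with at least 3 exons (left) and in Itgb1 (middle), for MI+FG-3149 (red), MI+IgG (orange) and Sham (blue), and relative log2 fold change of the first exon in MI+FG-3149 against MI+IgG by GC content for 20 members (right; filled, adjusted p under 0.05). The MI+FG-3149 libraries lie highest in both shares, and all 8 first exons at or above 70% GC are filled.

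Promoter windows of 300 bases (250 before and 50 after the start) from RefSeq (GRCm38.p6) were available for 28 of the 44 members. They are shown for the gene with the largest change (Itgbl1), for the receptor chains Itga11 and Itgb5 that rose with it, and for Itgb1, whose last 50 bases here open the exon described above. Capitals mark matches on either strand to the letters of a GC box (ccgccc or gggcgg) or of a TEAD site (cattcc or ggaatg); a match to an AP1 site (tgactca or tgagtca) would also be in capitals, and none occurred in the 4.
Itgbl1 (chr14:123659890-123660189, plus strand, 45.3% GC): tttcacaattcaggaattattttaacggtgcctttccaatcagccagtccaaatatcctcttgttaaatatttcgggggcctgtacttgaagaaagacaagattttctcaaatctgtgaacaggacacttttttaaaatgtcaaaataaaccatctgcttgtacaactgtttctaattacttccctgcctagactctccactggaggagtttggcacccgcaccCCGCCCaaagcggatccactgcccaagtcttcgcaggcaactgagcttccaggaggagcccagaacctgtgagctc
Itga11 (chr9:62677605-62677904, plus strand, 68.0% GC): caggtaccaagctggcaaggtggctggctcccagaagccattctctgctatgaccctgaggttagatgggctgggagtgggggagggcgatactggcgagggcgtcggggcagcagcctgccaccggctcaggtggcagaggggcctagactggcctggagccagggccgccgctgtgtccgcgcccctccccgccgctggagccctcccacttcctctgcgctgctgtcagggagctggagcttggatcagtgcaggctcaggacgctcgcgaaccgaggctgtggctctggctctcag
Itgb5 (chr16:33829415-33829714, plus strand, 65.7% GC): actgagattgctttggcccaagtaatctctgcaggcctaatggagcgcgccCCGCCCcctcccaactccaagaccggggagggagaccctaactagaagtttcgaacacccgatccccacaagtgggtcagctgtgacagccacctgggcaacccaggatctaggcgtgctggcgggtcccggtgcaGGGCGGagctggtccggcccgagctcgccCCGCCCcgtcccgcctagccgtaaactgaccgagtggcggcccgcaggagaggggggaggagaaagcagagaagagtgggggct
Itgb1 (chr8:128685404-128685703, plus strand, 67.3% GC): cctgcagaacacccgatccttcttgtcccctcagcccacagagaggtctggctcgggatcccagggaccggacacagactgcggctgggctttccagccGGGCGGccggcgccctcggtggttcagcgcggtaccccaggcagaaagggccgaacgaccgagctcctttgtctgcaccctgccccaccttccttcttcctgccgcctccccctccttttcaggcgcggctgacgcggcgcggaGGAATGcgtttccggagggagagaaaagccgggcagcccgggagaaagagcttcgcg
The GC box was found 3 times in Itgb5 and 1 time each in Itgb1 and Itgbl1, and it is present in 13 of the 28 member windows and in 35.7% of all 32851 windows. The TEAD letters were found in 3 member windows, those of Itga10, Itgb1 and Nid1, and in 14.7% of all windows. The AP1 letters were found in 2, those of Itga9 and Itgax, and in 5.2% of all windows. The window of Itga9 belongs to its shorter transcript. Median GC content was 58.4% in the member windows and 52.7% in all windows.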

How the data were processed

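Estimated counts per gene and exon were deposited by the authors as raw values on RefSeq models, and RPKM (reads scaled to length and library total) were deposited per transcript; the build is mm10, per the submitters' processing notes. The labels' protocols name a stranded mRNA kit, 500 ng of total RNA, one flow cell and reads of 75 bases. The aligner, the counting tool and its strand setting are not given in the sources used here, so reads shared by overlapping genes or paralogs are uncertain. Groups came from the sample titles; p-values measure the spread between libraries. The 379 gene entries with a repeated symbol (0.0% of reads) were left out.

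Gene counts were rounded to whole numbers and filtered with filterByExpr. TMM factors (0.969 to 1.033) scaled them to CPM. All 13 libraries were fitted together in edgeR 4.0.16 (R 4.3.3, robust quasi-likelihood), with Benjamini-Hochberg adjustment over all 13434 genes; a standard error is the log2 fold change divided by the root of F. Exon use was tested with diffSpliceDGE. Levels between genes used RPKM, on which limma 3.58.1 was run as an alternative, as were DESeq2 1.42.0 and voom. The tests were also run on simulated counts drawn with the dispersions edgeR had estimated. Those counts held no difference between groups in first exons or GC-rich exons as a class, so they cannot show how the tests behave under one. Any member could be named, and of each partner list up to 4 genes with the smallest p, plus counts of at most 5; the members and lists were chosen with earlier results of these data known. One tested member is counted but not reported here. Intervals and floors cover counting error and library spread only.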

Additional observations from a re-analysis of the deposited data

Results flagged for a closer look

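Itga2b, the platelet integrin alpha chain, stood out in MI+FG-3149 replicate 5 at 3.42 CPM, where the other 4 libraries of that group had 0.744 to 1.45 CPM. The gap to its nearest neighbour was 0.735 of the group's range, above the limit of 0.71 used for 5 samples. It was the only such sample in 82 groups of 5 examined over the members, of which chance would give about 4.1. Itga2b passed in no comparison.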

How the results depend on the processing

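Each of the 37 member calls was recomputed under 25 to 27 alternative settings, giving 993 values: 939 kept direction and threshold, 50 kept direction only and 4 reversed. The reversals were Itgal (-0.041 and -0.167) and Itgam (-0.0198 and -0.0436) in MI+FG-3149 against Sham with limma on log2(RPKM + 1) and log2(RPKM + 0.1), which use one transcript per gene; with RPKM summed over transcripts, chosen after seeing the data, Itgal gave 0.208. Members higher in MI+FG-3149 against Sham numbered 6 with last exons only (chosen after seeing the data) and 6 to 13 when 1 library was left out, 6 without Sham replicate 1. Members lower in MI+FG-3149 against MI+IgG numbered 1, always Nid1, with library totals only, DESeq2 and both limma RPKM settings, and 0 to 1 with 1 library left out (1 without MI+IgG replicate 1). Genes called in MI+FG-3149 against MI+IgG (144) numbered 274 with DESeq2, 83 with only those groups fitted, 224 on log2(RPKM + 1), 61 without first exons, 59 with last exons only, 70 without MI+IgG replicates 4 and 5 and 68 to 271 with 1 library left out. Without first exons, member exons numbered 3 in MI+FG-3149 against MI+IgG, 5 in MI+FG-3149 against Sham and 0 in MI+IgG against Sham; the last was also 0 with the replicate block and 0 to 1 with 1 library left out. Leaving out 1 library gave 13 to 16 and 13 to 22 in the other two. The cause of these differences was not tested.

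Whether replicate numbers pair samples could not be decided from the libraries. Correlations of deviations between libraries of the same number ran from -0.042 to 0.178. In MI+FG-3149 against MI+IgG, 2 of 5 libraries matched best with their own number. With the replicate block, 215 genes were called there, and among the member calls only Lamc1 in MI+FG-3149 against Sham lost its own (adjusted p = 0.053). Low counts limit Itgad, Itga2, Lamc3 and Itgb8, and 3 Sham libraries limit every comparison with Sham.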
